A study of Homo sapiens with 5 samples.

Results

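The ATF4 amino acid stress program was taken as 40 named genes of the integrated stress response and of amino acid synthesis and uptake, with tRNA synthetases left out. The genes were listed by symbol, with no threshold on their values, but earlier results of these data were known when the list was made. All 40 were among the 25343 gene rows of the table, and all 40 passed the filter on low counts that kept 13604 genes for testing. The cells were SW620, a human colon carcinoma cell line profiled by stranded mRNA sequencing, whose genotype is given as tet-MUC1shRNA, a tetracycline-inducible short hairpin RNA against the transmembrane mucin gene MUC1. The 2 libraries named pos (replicates 1 and 3) were compared with the 3 libraries named neg (replicates 1, 2 and 3), and a pos replicate 2 was not analysed here. All 5 come from the same engineered line, grown in RPMI1640 with serum and antibiotics, in triplicate per the labels. The labels say that cells received doxycycline or vehicle, but do not say which of the names pos and neg stands for which. Cells with a control hairpin were not analysed here, so silencing of MUC1 and an effect of the drug itself cannot be told apart. MUC1 was counted at 27 and 13 reads in pos replicates 1 and 3, against 176, 252 and 218 reads in neg replicates 1, 2 and 3 (log2 fold change -3.07, SE 0.34, edgeR adjusted p = 0.0270).

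The integrated stress response starts with kinases that phosphorylate the translation initiation factor eIF2 when amino acids run short, when unfolded protein builds up in the endoplasmic reticulum (ER), or under other stresses. Most translation then slows, while translation of the mRNA for the transcription factor ATF4 increases, so the level of that mRNA is no measure of the protein. ATF4 binds DNA with partners such as the C/EBP factors and induces genes that make amino acids, import them and charge tRNAs, together with brakes on growth and on the response itself. Tumour cell lines, colon lines among them, are known to use this program to keep up amino acid supply.

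Gene counts summed to 12190025 and 13470767 reads in pos, against 10888704 to 14137678 reads in neg. Fewer genes had a read in pos, 14452 and 15530 against 16832 to 17054 in neg, and the TMM factor was 1.01 and 0.705 in pos replicates 1 and 3 against 1.09 to 1.14 in neg. The part of this in the results below was not tested. Before scaling, 3 reads equalled 0.223 to 0.246 CPM (reads scaled to a common library total) in pos and 0.212 to 0.276 CPM in neg. Colon epithelial markers (EPCAM, KRT8, KRT18, CDH1, VIL1 and CDX2) were detected in every library but moved in both directions. CDH1 was at 219 and 108 CPM (here and below after TMM scaling, a correction for library composition) in pos against 513 to 531 CPM in neg. CDX2 was at 61.4 and 124 against 18.0 to 21.7 CPM, and EPCAM at 553 and 560.5 against 348 to 369 CPM. KRT8, KRT18 and VIL1 were at 3678 and 7637, 2257 and 5660, and 189 and 143 CPM in pos, against 2156 to 3078, 1852 to 2369 and 135 to 148 CPM in neg. Of 8 markers of other cell types PTPRC, CD3E and COL1A2 had 0 reads in all 5 libraries, DCN had at most 2 reads and PECAM1 at most 8. COL1A1 was at 6.39 and 6.22 CPM in pos against 15.9 to 16.4 CPM in neg, CD68 at 36.0 and 46.7 against 43.6 to 53.1 CPM, and VWF at 0.243 and 1.48 against 2.57 to 3.84 CPM. The part of any of these markers in the results below was not tested. The pos libraries differed from each other more than neg libraries did, with a chi-square per degree of freedom of 152 against 6.02 to 22.4 for neg pairs. Pos replicate 3 was richer in short transcripts, which is set out for the members below.

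Every member that passed the test was lower in pos than in neg. Of the 40 members 10 fell and none rose (edgeR quasi-likelihood test, adjusted p at or under 0.05 over all 13604 genes), while 4.13% of all tested genes fell and 5.06% rose. Those that fell were ADM2, SESN2, CEBPG, STC2, SLC1A4, DDIT4, ASNS, ATF3, VLDLR and SLC7A5, and the other 30 members did not pass. The median log2 fold change of the members was -0.87, against -0.05 over all tested genes, and 33 of the 40 estimates were negative. Both pos libraries lay below every neg library for 27 members, a pattern seen in 29.3% of tested genes. No member lay above every neg library in both pos libraries, while 26.7% of tested genes did. In 10 members both pos libraries were at least 2-fold below the neg mean, as were 5.71% of tested genes. These are not the same 10 as those that fell, since TRIB3, SLC7A11 and SLC7A1 are among them and ASNS, SLC7A5 and VLDLR are not. In bulk RNA, fewer cells that express a gene and less RNA per cell cannot be told apart.

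Without neg replicate 1, 2 or 3 edgeR called 0 of 40 members and 0 genes in all, with 18, 18 and 20 members lower at an unadjusted p under 0.05. Over all genes tested, in either direction, 3033 of 13443, 2510 of 13420 and 2607 of 13474 were under that p. DESeq2 in those same subsets called 8, 8 and 9 members lower and none higher, of which 5, 5 and 6 were among the 10 called with all libraries, where 3.73%, 2.89% and 2.49% of all genes were called lower and 5.98%, 4.54% and 3.64% higher. Scaling by library size alone shifted the median of all genes to -0.41. It called 12 members lower and none higher, of which 6 were also called with TMM, where 3.37% of genes were called lower and 1.09% higher. The members' median stood 0.85 below the median of all genes there and 0.83 below it with TMM. The split of all calls was then 148 higher and 458 lower, against 689 higher and 562 lower with TMM.

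Other tests on all 5 libraries also called members lower and none higher. DESeq2 called 21 lower, the 10 among them, where 9.33% of genes were called lower and 11.6% higher. With limma-voom 12 members were called lower (4.31% of genes lower, 3.62% higher), with no filter on low counts 12 (3.2% lower, 4.03% higher) and with the size factors of DESeq2 in edgeR 10 (4.06% lower, 4.74% higher). With the replicate number as a block no member passed, where 0.581% of genes were called lower and 0.0588% higher. Without pos replicate 1 or pos replicate 3, with the lone pos library assumed to vary like neg, 24 and 31 members were called lower and 3 and 0 higher. The 3 were ATF4, EIF4EBP1 and SHMT2, at log2 fold changes of 0.73, 1.56 and 0.49 (edgeR adjusted p = 0.00429, 0.000409 and 0.0477). The shares of all genes were then 32.1% and 17% lower and 30.9% and 14.4% higher.

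**Figure D1:**
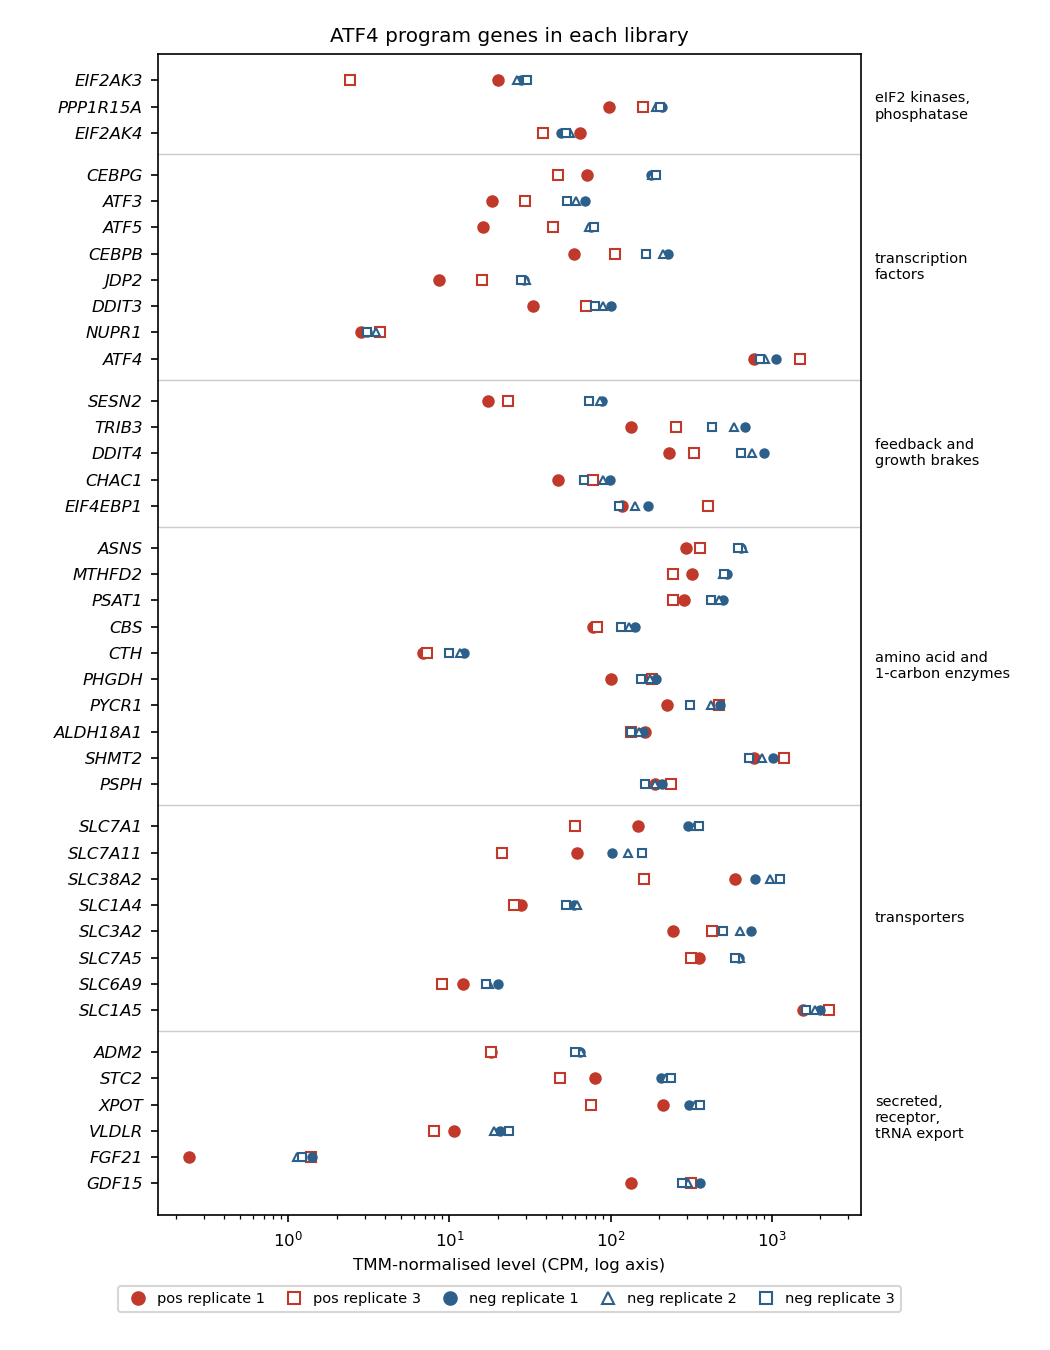
Level of each of the 40 members in each library (CPM, log axis), with rows grouped by role. Red symbols are the 2 pos libraries and blue symbols the 3 neg libraries. For 27 members both red symbols lie left of every blue one, and for no member do both lie right of every blue one.

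ATF4 and a C/EBP partner bind a composite site with the letters TGATGNAA, where N is any base. These letters were looked for on both strands in the promoter windows that RefSeq gives for GRCh38.p14, which run from 250 bases before to 50 bases after each annotated start. Of the 34 members with a window, 10 held the letters in at least 1 window (29.4%), against 2.6% of 9970 tested genes and 4.46% of 27305 genes in the whole promoter table. The share was 4 of 10 among the members that fell and 6 of 24 among the others, which were SLC3A2, SLC7A1, JDP2, CHAC1, SLC1A5 and FGF21. The shorter letters TGATG were found in 35.3% of members with a window, 27.4% of tested genes and 37.7% of the whole table. The members were listed as genes of the ATF4 program, so a high share of its site may be built into the list. A match is a description of the letters, and binding was not tested. The windows of the 4 members that fell and hold the letters are printed 5′ to 3′ on the strand of the gene, with the matching letters in capitals, to show how differently the same letters are placed. In CEBPG (chr19:33373863-33374162, plus strand) the match begins 42 bases before the start, and in ASNS (chr7:97872359-97872658, minus strand), the classic example of an amino acid response element, 68 bases before it. In ATF3 (chr1:212565157-212565456, plus strand) it begins 191 bases before the start, and in SLC1A4 (chr2:64989149-64989448, plus strand) 7 bases before it and on the opposite strand. Each of these 4 genes also has a window at another annotated start that lacks the letters.
CEBPG: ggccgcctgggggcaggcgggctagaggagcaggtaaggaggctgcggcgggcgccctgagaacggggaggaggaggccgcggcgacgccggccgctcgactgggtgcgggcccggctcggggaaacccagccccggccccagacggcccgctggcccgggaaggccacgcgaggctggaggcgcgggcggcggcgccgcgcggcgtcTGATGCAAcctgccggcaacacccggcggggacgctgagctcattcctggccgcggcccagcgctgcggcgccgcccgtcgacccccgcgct
ASNS: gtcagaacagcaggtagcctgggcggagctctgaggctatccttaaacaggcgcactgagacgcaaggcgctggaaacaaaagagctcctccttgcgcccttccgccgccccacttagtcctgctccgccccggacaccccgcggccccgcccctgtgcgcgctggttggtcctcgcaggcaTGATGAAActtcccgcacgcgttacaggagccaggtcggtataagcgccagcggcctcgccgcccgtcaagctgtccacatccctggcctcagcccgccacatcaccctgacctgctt
ATF3: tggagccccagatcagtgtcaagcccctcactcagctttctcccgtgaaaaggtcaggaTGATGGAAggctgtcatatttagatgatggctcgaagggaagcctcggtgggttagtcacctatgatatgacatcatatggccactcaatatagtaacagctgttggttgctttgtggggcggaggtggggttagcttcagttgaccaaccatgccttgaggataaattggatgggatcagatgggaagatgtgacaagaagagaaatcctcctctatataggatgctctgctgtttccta
SLC1A4: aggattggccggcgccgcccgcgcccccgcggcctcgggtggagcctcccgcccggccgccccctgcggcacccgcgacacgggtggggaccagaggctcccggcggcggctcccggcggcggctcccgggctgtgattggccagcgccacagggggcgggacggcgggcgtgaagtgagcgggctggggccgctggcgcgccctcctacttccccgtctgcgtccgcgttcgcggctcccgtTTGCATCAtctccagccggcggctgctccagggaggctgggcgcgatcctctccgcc

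Of the genes that start and stop the response none of 3 passed the threshold, where 4.13% of all tested genes fell and 5.06% rose. EIF2AK4, which encodes the uncharged tRNA sensor GCN2, was at 64.4 and 37.8 CPM in pos replicates 1 and 3, against 49.6, 55.8 and 52.6 CPM in neg replicates 1, 2 and 3. The pos libraries lay on either side of neg, and the log2 fold change was -0.04 (SE 0.27, edgeR adjusted p = 0.922). EIF2AK3, the gene of the ER stress kinase PERK, was at 20.0 and 2.42 CPM in pos, from 247 and 23 reads, against 27.8, 26.4 and 30.1 CPM in neg. Pos replicate 3 alone was far below the rest, and the estimate of -1.31 had an SE of 0.76 (edgeR adjusted p = 0.256). PPP1R15A encodes GADD34, the stress-induced subunit of the phosphatase that reverses eIF2 phosphorylation. Its level was 98.6 and 158 CPM in pos against 208, 192 and 204 CPM in neg. Both pos libraries were below every neg library, as in 29.3% of tested genes, but PPP1R15A did not pass (log2 fold change -0.65, SE 0.25, edgeR adjusted p = 0.132). It passed once a trend with transcript length was removed (log2 fold change -0.89, edgeR adjusted p = 0.0283). With library size as the only scaling it passed too (-1.09, edgeR adjusted p = 0.0480), while EIF2AK3 and EIF2AK4 passed in neither fit.

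ATF4 mRNA itself was not called different, while CEBPG and ATF3, which act with it or downstream of it, fell. ATF4 was at 780.4 and 1508 CPM in pos replicates 1 and 3, against 1064, 913.8 and 843.1 CPM in neg replicates 1, 2 and 3. The pos libraries enclosed all neg values, with a log2 fold change of 0.28 (SE 0.32, edgeR adjusted p = 0.546) that was -0.18 with library size as the only scaling. Without pos replicate 1 it was called higher, at 0.73 (edgeR adjusted p = 0.00429). Per kilobase of transcript ATF4 was the most abundant member in neg, at 663 CPM per kilobase, above 99.4% of tested genes.

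CEBPG, a dimer partner of ATF4, fell to 71.9 and 47.2 CPM in pos, against 178, 181 and 192 CPM in neg. The fall was 3.08-fold (log2 fold change -1.62, SE 0.25, edgeR adjusted p = 0.0339), and set against the mean of neg, pos replicate 1 stood at -1.35 and pos replicate 3 at -1.95 on the log2 scale. The stress-induced repressor ATF3 fell to 18.4 and 29.6 CPM in pos, against 69.9, 60.8 and 53.4 CPM in neg (log2 fold change -1.36, SE 0.28, edgeR adjusted p = 0.0449). CEBPB, a further C/EBP partner, and ATF5, a relative of ATF4 that is also controlled at translation, were below neg in both pos libraries without passing. CEBPB was at 59.6 and 106 CPM in pos against 228, 211 and 166 in neg (edgeR adjusted p = 0.0554). ATF5 was at 16.2 and 43.8 CPM in pos against 75.5, 73.4 and 78.4 in neg (edgeR adjusted p = 0.0878). The AP-1 repressor JDP2 had 8.58 and 16.0 CPM in pos against 29.1, 30.0 and 28.0 CPM in neg, and the pro-apoptotic factor gene DDIT3 (CHOP) 33.1 and 70.3 against 101, 89.6 and 79.8 CPM. Neither passed (edgeR adjusted p = 0.0571 and 0.161). For both genes the pos libraries lay below every neg library, as they did for 29.3% of all tested genes. The chromatin cofactor NUPR1 was low in all libraries, at 2.83 and 3.69 CPM in pos against 3.08, 3.52 and 3.05 CPM in neg. Over these 8 factors 2 fell, 0 rose and the median log2 fold change was -1.26, where 4.13% of all tested genes fell and 5.06% rose.

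Among 5 feedback and growth-limiting genes the mTORC1 inhibitors SESN2 and DDIT4 fell, where 4.13% of all tested genes fell. SESN2, a leucine sensor that restrains mTORC1, lies on chromosome 1 (28259518 to 28282491, plus strand, GENCODE 44) and had the largest fall of the 40 members with TMM scaling. With the length trend removed DDIT4 was lowest (-1.92, against -1.88 for SESN2), without pos replicate 1 EIF2AK3 was (-3.48), and without pos replicate 3 FGF21 was (-2.34). The level of SESN2 was 17.3 and 23.0 CPM in pos replicates 1 and 3, from 214 and 218 reads, against 88.4, 85.8 and 73.7 CPM in neg replicates 1, 2 and 3. This was a 4.1-fold fall (log2 fold change -2.04, SE 0.23, edgeR adjusted p = 0.0270), with a wide gap between the groups. DDIT4, also called REDD1, fell to 230.0 and 331 CPM in pos, against 896, 761 and 644 CPM in neg (log2 fold change -1.45, SE 0.27, edgeR adjusted p = 0.0390). It was the third most abundant member per kilobase in neg, at 440 CPM per kilobase, and stood at 161 in pos. The pseudokinase TRIB3, which dampens ATF4 and DDIT3 activity, was at 134 and 257 CPM in pos against 685, 583 and 429 CPM in neg. It lay at least 2-fold below the neg mean in both pos libraries but narrowly missed the threshold (log2 fold change -1.53, SE 0.37, edgeR adjusted p = 0.0535). CHAC1, which degrades glutathione, had 47.5 and 77.8 CPM in pos and 98.8, 89.9 and 68.4 CPM in neg, with overlap. EIF4EBP1, the repressor of cap-dependent translation, was the member with the highest estimate. Its level was 117 and 404 CPM in pos against 171, 141 and 112 CPM in neg, high in pos replicate 3 alone (log2 fold change 0.88, SE 0.50, edgeR adjusted p = 0.255), and it was called higher without pos replicate 1.

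The enzymes that make amino acids and feed the folate cycle split into a lower group and a group with overlapping values. Of 10 only ASNS, which makes asparagine from aspartate and glutamine, passed the threshold, and 5 lay below every neg library in both pos libraries. The shares of all tested genes were 4.13% lower past the threshold and 29.3% below every neg library in both pos libraries. ASNS fell to 295 and 358 CPM in pos replicates 1 and 3, against 647, 664 and 617 CPM in neg replicates 1, 2 and 3 (1.97-fold, log2 fold change -0.98, SE 0.20, edgeR adjusted p = 0.0444). The transaminase gene PSAT1 of serine synthesis had 286 and 244 CPM in pos against 497, 469 and 423 CPM in neg. MTHFD2, an enzyme of mitochondrial folate metabolism, had 320 and 244 CPM in pos against 528, 502 and 505 CPM in neg. Both were close to the threshold without passing (edgeR adjusted p = 0.0560 and 0.0546). CBS and CTH, the enzymes that turn homocysteine into cysteine, were at 78.1 and 82.3 against 142, 131 and 116 CPM, and at 6.88 and 7.27 against 12.4, 11.6 and 9.89 CPM (pos against neg, edgeR adjusted p = 0.0688 and 0.101). The pos libraries agreed closely with each other for both genes.

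The remaining enzymes of the same pathways overlapped between the groups. PHGDH, which catalyses the first step of serine synthesis, had 101 and 182 CPM in pos against 193, 176 and 154 in neg. PSPH, which catalyses the last step, had 190.2 and 238 CPM in pos against 209, 189 and 165 in neg. With TMM scaling the serine synthesis route thus held a gene below neg in both pos libraries (PSAT1) between 2 whose groups overlapped. Once a trend with transcript length was removed, PSAT1 and PHGDH both passed as lower (log2 fold changes -1.05 and -0.75, edgeR adjusted p = 0.022 and 0.0349). PSPH did not pass in that fit (-0.17, edgeR adjusted p = 0.403). SHMT2, which splits serine to glycine in mitochondria, was at 776 and 1189.5 CPM in pos against 1025, 877 and 728 in neg. The proline synthesis genes ALDH18A1 (164 and 133 CPM in pos, 159, 150 and 135 in neg) and PYCR1 (224 and 474 CPM in pos, 477, 419 and 314 in neg) showed no separation of the groups either. The 10 enzymes had a median log2 fold change of -0.49, from -0.98 for ASNS to 0.19 for PSPH.

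Of 8 amino acid transporters 2 fell, 7 lay below every neg library in both pos libraries, and the median log2 fold change was -1.02. Among all tested genes 4.13% fell and 29.3% lay below every neg library in both pos libraries. SLC7A5, the large neutral amino acid exchanger LAT1, fell to 352 and 316 CPM in pos replicates 1 and 3, against 625, 639 and 591 CPM in neg replicates 1, 2 and 3 (log2 fold change -0.89, SE 0.19, edgeR adjusted p = 0.0457). It did not pass once a trend with transcript length was removed (log2 fold change -0.51, edgeR adjusted p = 0.0746). SLC1A4, a carrier of alanine, serine and cysteine, fell to 27.7 and 25.3 CPM in pos, against 59.6, 61.6 and 53.2 CPM in neg (log2 fold change -1.13, SE 0.19, edgeR adjusted p = 0.0381). For both, the pos libraries lay close together and well below neg. SLC3A2, the heavy chain that carries SLC7A5 and SLC7A11 to the membrane, had 246 and 427 CPM in pos against 742, 639.5 and 503 CPM in neg (edgeR adjusted p = 0.110).

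A group of 3 long transporter transcripts were much lower in pos replicate 3 than in pos replicate 1. The arginine and lysine importer SLC7A1 had 149 and 60.4 CPM in pos against 304, 334 and 354 CPM in neg, and the cystine importer SLC7A11 62.1 and 21.2 against 102, 128 and 157 CPM. SLC38A2, the amino-acid-regulated glutamine and alanine carrier SNAT2, had 593 and 161 CPM in pos against 785, 977 and 1126 CPM in neg. Their log2 fold changes of -1.66, -1.63 and -1.35 carried SEs of 0.40, 0.49 and 0.55 and did not pass (edgeR adjusted p = 0.0545, 0.0801 and 0.145). The glycine carrier SLC6A9 had 12.2 and 8.96 CPM in pos against 19.9, 17.6 and 17.0 CPM in neg (edgeR adjusted p = 0.0836). SLC1A5, the glutamine importer ASCT2, was the exception, at 1558 and 2276 CPM in pos against 2009, 1875 and 1646 CPM in neg (log2 fold change 0.06, SE 0.26, edgeR adjusted p = 0.885). It ranked next to ATF4 among members per kilobase in neg, at 639.6 CPM per kilobase.

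Of 6 genes for secreted factors, a receptor and tRNA export 3 fell, where 4.13% of all tested genes fell. ADM2 (chromosome 22, from 50481543 to 50486440 on the plus strand in GENCODE 44), which encodes a peptide hormone of the calcitonin family, had the smallest p of all members. Its level was 18.0 and 18.1 CPM in pos, against 64.3, 65.8 and 60.4 CPM in neg, a 3.51-fold fall with tight replicates in both groups (log2 fold change -1.81, SE 0.19, edgeR adjusted p = 0.0263). STC2, a secreted glycoprotein induced by ER stress, fell to 80.5 and 48.7 CPM in pos, against 206, 222 and 239 CPM in neg (log2 fold change -1.78, SE 0.28, edgeR adjusted p = 0.0345). VLDLR, a lipoprotein receptor and known ATF4 target, fell to 10.7 and 8.01 CPM in pos, against 20.5, 18.9 and 23.4 CPM in neg (log2 fold change -1.16, SE 0.24, edgeR adjusted p = 0.0449). It did not pass once a trend with transcript length was removed (log2 fold change -0.33, edgeR adjusted p = 0.386). XPOT, which exports tRNA from the nucleus, had 210.5 and 75.5 CPM in pos against 305, 336 and 359 in neg (edgeR adjusted p = 0.112). The stress cytokine GDF15 had 134 and 316 CPM in pos against 358, 304 and 278 in neg, low in pos replicate 1 and within the neg range in pos replicate 3. The hormone FGF21 was near the limit of detection, with 3 and 13 reads in pos against 20, 18 and 15 reads in neg.

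**Figure D2:**
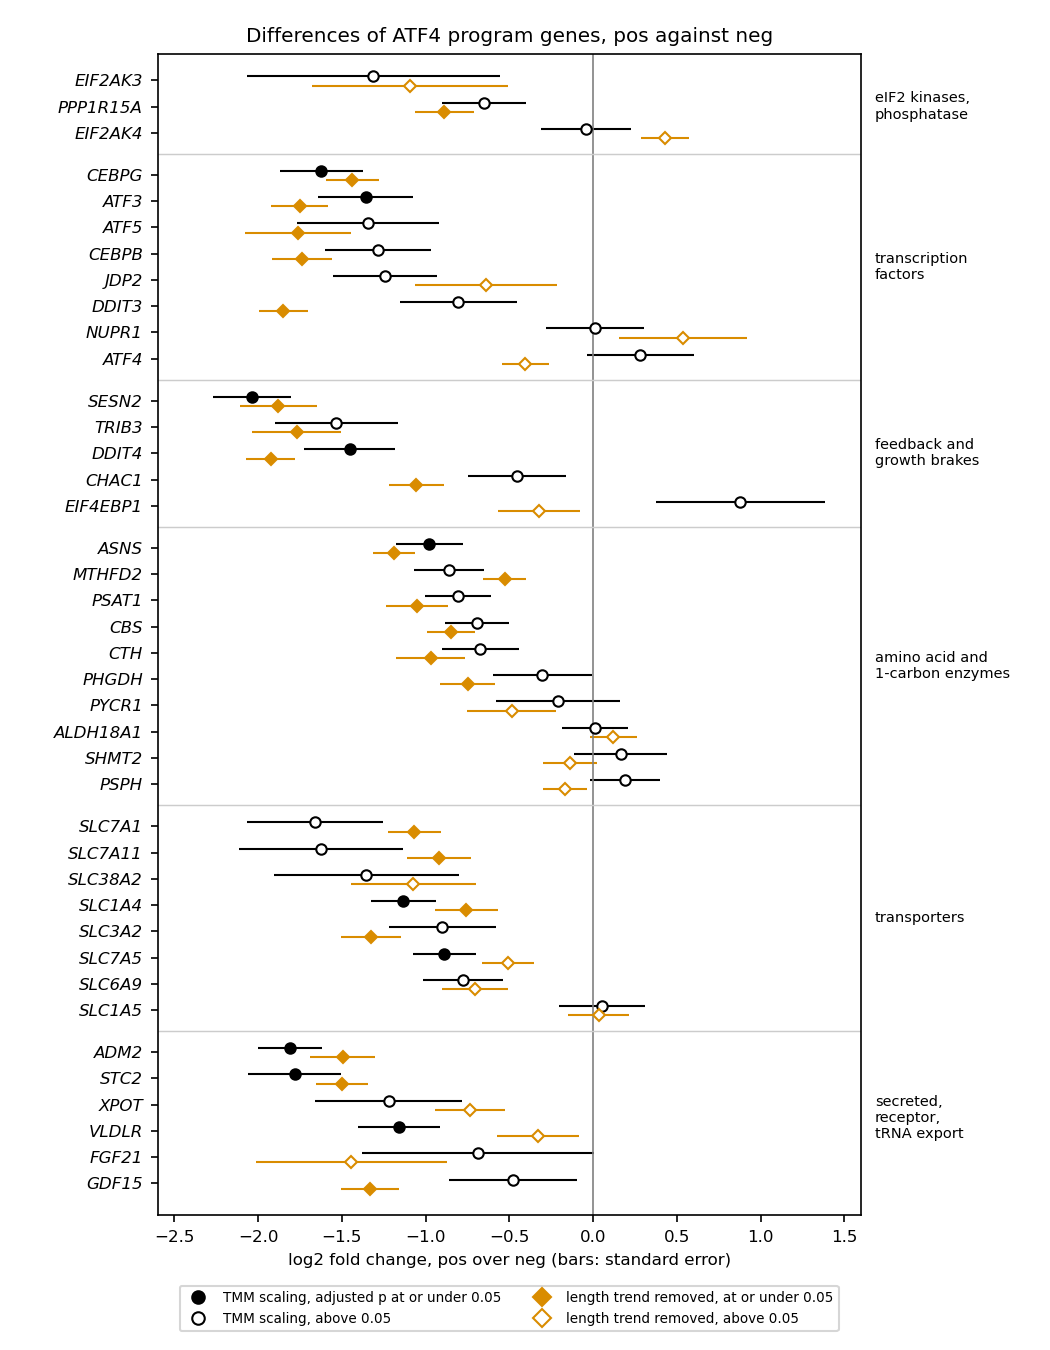
Log2 fold change of each member, pos over neg, with its standard error, from the fit with TMM scaling (black circles) and from the fit with each library's length trend removed (orange diamonds). Filled symbols passed an adjusted p of 0.05. Of the filled symbols, 10 black and 23 orange, all lie below 0.

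The pos libraries differed from each other with transcript length, and the members as a set, though not each member, followed this. Canonical transcripts of GENCODE 44 gave the lengths, and genes were split into 5 bins of about equal size. Over all tested genes the median log2 ratio of pos replicate 3 to neg was 1.18 in the shortest bin (up to 1724 nt) and -1.25 in the longest (from 5686 nt), against 0.36 and -0.26 in pos replicate 1. Across the 40 members the difference between pos replicates 3 and 1 correlated with log2 length at Pearson r = -0.75, and at r = -0.545 over 13258 tested genes. Those points share the same 2 libraries. EIF4EBP1, with a transcript of 827 nt, was 1.78 higher in pos replicate 3 than in replicate 1 on the log2 scale, and FGF21 (1347 nt) 1.94 higher. The difference, pos replicate 3 minus pos replicate 1, was -1.88 for SLC38A2 (4795 nt), -1.55 for SLC7A11 (9645 nt) and -2.96 for EIF2AK3 (4536 nt). Other members of like length did not show this. The difference was -0.16 for SLC7A5 (4556 nt), -0.13 for SLC1A4 (4563 nt), -0.41 for VLDLR (9213 nt) and 0.89 for JDP2 (5378 nt).

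Within each length bin the members' median was below the median of all genes of like length, in both pos libraries. Single members lay above the latter, such as NUPR1 in pos replicate 3 (0.19 against -0.66) and EIF2AK4 in pos replicate 1 (0.29 against -0.12). The bins rest on canonical lengths (5291 nt for NUPR1), and whether those transcripts are the ones counted was not tested. In pos replicate 3 the members' median ratio was 0.07, -0.65, -1.003, -1.13 and -2.29 from the shortest to the longest bin, against 1.18, 0.45, -0.14, -0.66 and -1.25 for all tested genes. In pos replicate 1 it was -1.02, -1.03, -0.56, -0.75 and -0.99, against 0.36, 0.12, -0.04, -0.12 and -0.26. The difference, members minus all genes, therefore lay between -1.39 and -0.53 on the log2 scale in pos replicate 1 and between -1.11 and -0.47 in pos replicate 3, with 6, 15, 5, 10 and 4 members in the bins.

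With each library's length trend removed within the fit, 23 members fell and none rose, and the members' median was -0.95. Among all tested genes 6.66% fell and 7.37% rose. Of the 10 members called with TMM alone 8 passed, while SLC7A5 and VLDLR did not. Members with short transcripts then stood lower, among them DDIT3 at -1.85 (edgeR adjusted p = 0.00538), GDF15 at -1.33 (edgeR adjusted p = 0.0127), CHAC1 at -1.05 (edgeR adjusted p = 0.0166) and PHGDH at -0.75 (edgeR adjusted p = 0.0349). TRIB3 and CEBPB passed as well, at -1.77 and -1.74 (edgeR adjusted p = 0.0158 and 0.00853). ATF4 was at -0.40 and did not pass (edgeR adjusted p = 0.0969), with a sign opposite to that with TMM alone. EIF2AK4, NUPR1, ALDH18A1 and SLC1A5 had positive estimates in this fit, from 0.03 to 0.54, and none passed.

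**Figure D3:**
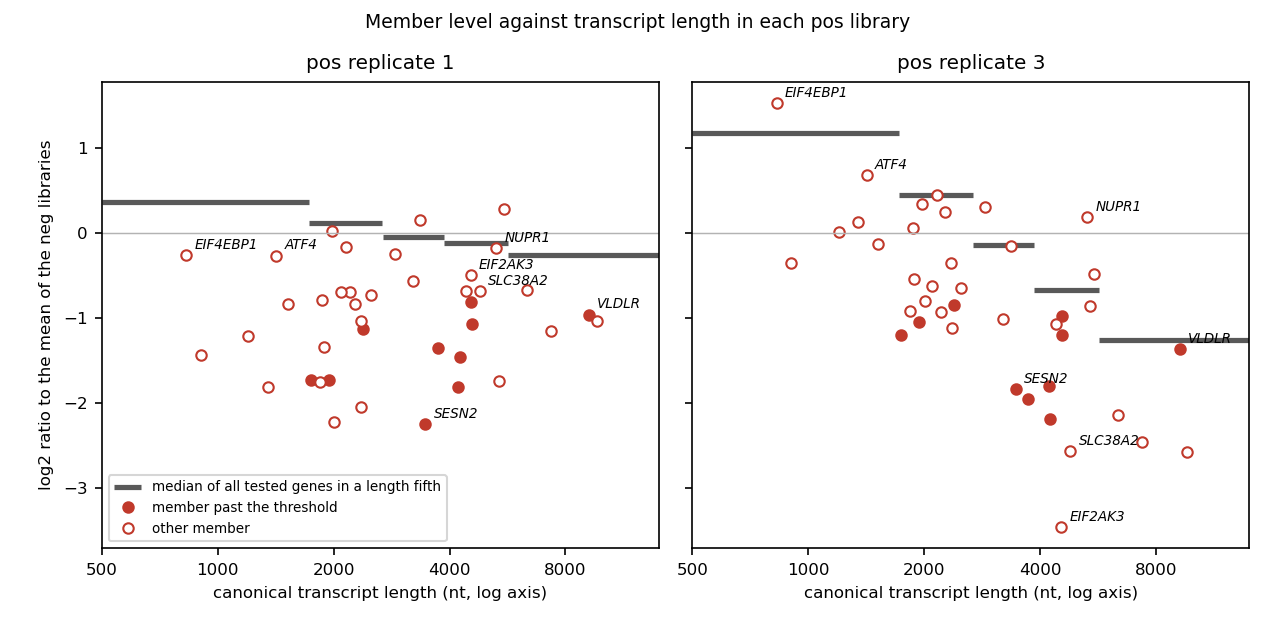
Log2 ratio of each member to the mean of the neg libraries against transcript length (nt, log axis), in pos replicate 1 (left) and pos replicate 3 (right). Grey bars are medians of all tested genes in the 5 length bins, with the outer bars drawn only within the axis. The bars fall from 1.18 to -1.25 in pos replicate 3 and from 0.36 to -0.26 in pos replicate 1, and most members lie below them in both.

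Genes of the same pathways outside the members were counted in lists written with earlier results of these data known. The counts stand beside shares of 4.13% lower and 5.06% higher over all tested genes. Of 19 other genes linked to ATF4 or to its stress response 9 fell and none rose, with a median log2 fold change of -1.27. GTPBP2, a GTPase gene, fell to 49.8 and 51.1 CPM in pos replicates 1 and 3, against 220, 191 and 167 CPM in neg replicates 1, 2 and 3 (log2 fold change -1.93, SE 0.21, edgeR adjusted p = 0.0270). HERPUD1, a gene of ER protein degradation, had a log2 fold change of -1.92 (SE 0.23, edgeR adjusted p = 0.0296). Of 17 further genes of eIF2 signalling, which hold the other eIF2 kinases and the subunits of eIF2 and of its exchange factor eIF2B, 1 fell and none rose, and the median was -0.16. The one was DNAJC3, an ER chaperone gene that restrains eIF2 kinases, at 91.7 and 47.2 CPM in pos against 253, 268 and 294 CPM in neg (log2 fold change -1.97, SE 0.33, edgeR adjusted p = 0.0373).

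Enzymes and carriers of amino acids that were not among the members were counted in the same way, beside the same shares of 4.13% and 5.06%. Of 22 tested enzymes of amino acid and folate metabolism 0 fell and 0 rose, with a median of 0.03. Of 15 tested transporters 1 fell and 0 rose, with a median of -0.52. It was SLC7A2, an importer of cationic amino acids, at 1.21 and 2.21 CPM in pos against 7.34, 9.62 and 11.2 CPM in neg (log2 fold change -2.47, SE 0.39, edgeR adjusted p = 0.0345), and it did not pass with the length trend removed (-1.67, edgeR adjusted p = 0.0710). Whether these lists differ from the members was not tested.

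Some levels rest on reads that other genes could share. The canonical exons of 13 members overlap exons on the opposite strand, over 1.44% to 36.8% of their length, with MTHFD2 the most and MARS1 facing DDIT3 over 24.3%. Among the members that fell these were ADM2 (3.11%), SLC7A5 (2.55%) and VLDLR (8.74%). Whether the authors counted by strand is not given in the sources used here. ASNS shares 2374 of its 2385 exonic bases with an overlapping gene model on its own strand. The pseudogene rows SLC7A5P1 and SLC7A5P2 held at most 14 reads in pos and 32 in neg.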

How the data were processed

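The authors deposited raw read counts by gene symbol, 1 column for each of 5 libraries, made per the labels' protocols from TruSeq Stranded mRNA libraries aligned with STAR (2.5.2b per the submitters' processing notes). The build is given as hg19 in those notes and as GRCh38 in the labels, so coordinates here are from GENCODE 44 and RefSeq (GRCh38) and not from the authors. The counting program is not given in the sources used here. Columns were matched to libraries by title. The 92 spike-in rows, at 0 in every library, were left out.

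The counts were fitted with edgeR 4.0.16 (R 4.3.3): filterByExpr (minimum count 10, minimum total 15), TMM scaling, glmQLFit and glmQLFTest, two-sided, with Benjamini-Hochberg adjustment over 13604 genes. The SE of a log2 fold change was derived from its F statistic (estimate over root F). Library ratios used log2 CPM with a prior count of 2. The fits were tested on simulated counts. Nothing says that the libraries of a group came from separate cultures beyond growth in triplicate, so p-values measure the spread between these libraries, which may be technical.

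The members, the role groups and the other gene lists were chosen with earlier results of these data known. All 40 members were named, with MUC1 and, from each other list, the 2 called genes of smallest p in each direction. Alternatives were DESeq2 1.42.0, limma-voom (limma 3.58.1), DESeq2 size factors, library size only, no filter, a block for the replicate number, fits without each library in turn, and removal of each library's lowess trend (span 0.3) on transcript length, known for 97.5% of tested genes. The length trend was entered as an offset of the fit, with the counts unchanged and genes of unknown length left without a trend. DESeq2 without each neg library was added after the data were seen. A fit without a pos library assumes that the lone pos library varies like neg.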

Additional observations from a re-analysis of the deposited data

How the results depend on the processing

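In every alternative run the members' median stayed negative and no fit on all 5 libraries called a member higher. Members called lower numbered 21 with DESeq2 (9.33% of genes called lower, 3042 genes in all), 23 with the length trend removed (1908 genes in all) and 12 with limma-voom, with no filter and with library size only (606 genes in all). The members' median was -1.26 with library size only, -0.92 with limma-voom and -0.95 with the length trend removed. With each library left out in turn, genes called ran from 0 to 8819, members called lower from 0 to 31, members called higher from 0 to 3 and the members' median from -0.94 to -0.80 (to -0.79 with DESeq2). The high ends of the counts come from fits with a lone pos library, where 17% or more of all genes were called lower. With the replicate number as a block 0 members and 87 genes passed edgeR, with 13 members lower at an unadjusted p under 0.05 and 1669 of 13604 genes under that p in either direction. Deviations of same-numbered libraries from their group means correlated at -0.44 and -0.45. With 2 pos libraries these deviations mirror each other, so the correlations cannot decide whether the numbers are pairs. The labels state no pairing, and the block was therefore kept as an alternative only.

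The members whose sign changed were not among the 10 called with TMM on all libraries, but PHGDH and GDF15 passed as lower with the length trend removed. Fits with a lone pos library moved these members in both directions. Without pos replicate 1 the estimates were 0.73 for ATF4, 1.56 for EIF4EBP1, 0.49 for SHMT2 and -0.43 for EIF2AK4. Without pos replicate 3 they were -0.82 for PHGDH, -1.25 for GDF15, -0.87 for PYCR1 and -2.34 for FGF21. With library size only the log2 fold change was -0.18 for ATF4, -0.40 for NUPR1, -0.22 for PSPH, -0.27 for SHMT2, -0.34 for ALDH18A1 and -0.37 for SLC1A5. With the length trend removed it was 0.43 for EIF2AK4, -0.40 for ATF4, -0.32 for EIF4EBP1, -0.17 for PSPH and -0.14 for SHMT2. NUPR1 was at -0.0061 with no filter and -0.0065 with limma-voom, and ALDH18A1 at -0.0097 with no filter. With each library left out in turn the estimates ran from -0.43 to 0.26 for EIF2AK4, from -0.29 to 0.73 for ATF4, from -0.21 to 0.24 for NUPR1, from -0.30 to 1.56 for EIF4EBP1, from -0.82 to 0.11 for PHGDH, from -0.0063 to 0.39 for PSPH, from -0.20 to 0.49 for SHMT2, from -0.10 to 0.12 for ALDH18A1, from -0.87 to 0.28 for PYCR1, from -0.27 to 0.35 for SLC1A5, from -1.25 to 0.0603 for GDF15 and from -2.34 to 0.19 for FGF21. Depth limited FGF21 most, where 3 reads in pos replicate 1 (0.243 CPM) had an exact Poisson 95% interval of 0.0501 to 0.709 CPM, which covers counting error only. The causes of these shifts were not tested.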
